A study of Mus musculus with 15 samples.

Results

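The 6 genes described here encode lung surfactant proteins and markers of the alveolar epithelium: Sftpa1, Sftpb, Sftpc and Sftpd (surfactant proteins A1, B, C and D), Ager (the receptor for advanced glycation end products, RAGE) and Lamp3 (a lysosomal membrane glycoprotein also known as DC-LAMP). They were chosen by name, from signals already seen on these same arrays, out of 18350 genes that the array's accessions name, and 9 of 41174 probes on the array map to them. Their levels and differences are therefore given as a description, with no p-value. RNA came from heart tissue of C57BL/6 mice, 1 mouse to an array, and was hybridised to 15 single-colour Agilent mouse arrays. The mice were 8 to 10 weeks old at the start and received a weekly intraperitoneal injection over 20 weeks, either of methamphetamine (meth), raised by 2 mg each week to 40 mg/kg, or of sterile phosphate buffered saline (PBS). Hearts were taken at 5 months from 4 male meth, 4 male PBS, 4 female meth and 3 female PBS mice. The males came from 2 trials of 2 meth and 2 PBS mice each, and the females from 1 trial according to the sample titles, although another label places female meth replicates 3 and 4 and female PBS replicate 3 in the second trial. No group carried a genetic change. The study asked which heart transcripts respond to long meth exposure in each sex and which respond differently between the sexes.

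Pulmonary surfactant is made, stored in lamellar bodies and secreted by alveolar type 2 cells. Surfactant proteins B and C are small hydrophobic proteins that act in the lipid film, and surfactant proteins A and D are collectins, secreted lectins that bind sugars on microbes. Ager is best known as a surface protein of the flat alveolar type 1 cells that line the air space, and Lamp3 lies in the membrane of lamellar bodies and of lysosomes in mature dendritic cells. Surfactant proteins A and D are also made by secretory cells of the airways, while surfactant protein C is the classical mark of the type 2 cell. Heart muscle is not a recognised source of surfactant.

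Values are log2 signals of a probe with the 75th percentile of its array set to 0, so that a value of -4 lies 4 doublings below that percentile. A probe was read as measured on an array where the scanner software called it well above background. The lowest signal so called lay between -5.92 and -4.96 on the 15 arrays, and 61.4% to 71.4% of probes passed on an array. On slide 4, which holds female meth replicates 3 and 4 and female PBS replicate 3, the 75th percentile of the raw signal was 461 to 618, against 323 to 424 on the other 12 arrays. The arrays carried heart RNA. All 10 cardiomyocyte markers were measured and none passed the test in any comparison, with cardiac troponin T (Tnnt2) at 9.26 ± 0.10 (SD, n = 4) in male PBS and 8.99 ± 0.09 (SD, n = 4) in female meth hearts. A probe entered the test where 3 or more arrays measured it, which left 28358, and 4 of the 6 genes had 1 probe each among them.

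Sftpa1 and Sftpd are neighbours on mouse chromosome 14, with the mannose-binding lectin gene Mbl1 as the protein-coding gene between them. Promoters of 4 of the 6 genes were held in the RefSeq table used here (build GRCm38.p6), from 250 bases before to 50 bases after the start. Those of the collectin Sftpa1, at chr14:41131538-41131837 on the plus strand, and of Sftpb, at chr6:72304360-72304659 on the plus strand, are shown because both genes are textbook targets of the lung factor NKX2-1 (thyroid transcription factor 1), yet 1 of them was measured in these hearts and the other was not. Capitals mark CTCAAG, the core letters of the NKX2-1 motif, searched on both strands (CTTGAG on the reverse).
Sftpa1: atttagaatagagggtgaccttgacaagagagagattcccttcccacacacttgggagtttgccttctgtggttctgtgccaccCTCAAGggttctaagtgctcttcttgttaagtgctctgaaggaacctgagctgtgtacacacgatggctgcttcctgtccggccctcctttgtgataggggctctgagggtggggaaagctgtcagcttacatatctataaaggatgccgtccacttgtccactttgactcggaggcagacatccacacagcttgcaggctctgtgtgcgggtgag
Sftpb: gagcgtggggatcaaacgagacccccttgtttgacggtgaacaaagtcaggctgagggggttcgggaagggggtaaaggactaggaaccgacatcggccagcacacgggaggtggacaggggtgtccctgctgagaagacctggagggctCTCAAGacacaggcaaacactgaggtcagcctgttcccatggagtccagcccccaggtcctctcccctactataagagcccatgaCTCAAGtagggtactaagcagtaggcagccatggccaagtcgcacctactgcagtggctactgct
The letters occurred 1 time in the Sftpa1 window, 2 times in the Sftpb window and 0 times in those of Ager and Lamp3, and 15.9% of all 32851 promoters in the table held them. A match is a description of the letters and no evidence of binding. The Nkx2-1 gene itself was below that level on all 15 arrays.

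The hydrophobic surfactant proteins were measured in females or not at all. Sftpc, the type 2 cell protein that spans the membrane before it is secreted, was well above background on all 7 female arrays and on none of the 8 male arrays. It stood at -2.33, -0.71 and -2.0 in female PBS replicates 1 to 3. In female meth replicates 1 to 4 it stood at -3.80, -3.61, -3.55 and -4.05. Every female meth heart lay below every female PBS heart, and the 4 meth hearts were close to each other. The log2 difference was -2.08 (SE 0.32). On slide 1 meth minus PBS was -1.48, on slide 2 -2.91 and on slide 4 -1.80, so the lower meth level held on each slide. In males the Sftpc probe read -6.34 and -5.95 in the meth hearts of trial 1 and -6.13 and -6.95 in those of trial 2. The male PBS hearts read -6.32 and -6.52 in trial 1 and -7.10 and -6.91 in trial 2. These 8 values overlap and all lie below the lowest signal called above background, so they give no level and no fold between meth and PBS males. Between the PBS groups, Sftpc was at least 10.4-fold higher in females, a bound that sets the male arrays at their lowest signal well above background. In RNA of heart tissue, more cells that carry a transcript and more of it per cell cannot be told apart.

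Sftpb, whose protein is required for the surfactant film to form, was well above background on none of the 15 arrays. Its probe read between -8.04 and -6.70 over the 15 hearts and did not enter the test. Sftpc was thus measured in all 7 female hearts without Sftpb, its partner in surfactant. Only 1 probe for each of these 2 genes was on the array.

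The collectins were measured in other groups than Sftpc. Sftpd was well above background in all 4 male meth hearts, at -3.87 and -2.10 in trial 1 and at -4.67 and -2.82 in trial 2. The 4 male PBS hearts read -7.13 and -7.15 in trial 1 and -7.36 and -7.13 in trial 2, all at background. The groups did not overlap, and Sftpd was at least 3.24-fold higher in male meth than in male PBS hearts. The log2 difference as measured was 3.83 (SE 0.56), with 4.15 in trial 1 and 3.50 in trial 2.

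In females the order was turned. Sftpd was well above background in the 3 female PBS hearts, at -3.95, -2.63 and -3.63. Of the female meth hearts, replicates 1 and 4 were well above background at -4.77 and -4.84, while replicates 2 and 3 were not, at -5.63 and -7.01. Every female meth heart lay below every female PBS heart, with a log2 difference of -2.16 (SE 0.61). On each of the 3 slides with females the difference was negative, -0.81 on slide 1, -3.00 on slide 2 and -2.30 on slide 4. The male response minus the female response was 5.98 (SE 0.83) on the log2 scale, which is a description since Sftpd was chosen with these signals known. Male PBS hearts lay below female PBS hearts, at least 3.16-fold. The mean of the male meth hearts, -3.37 ± 1.13 (SD, n = 4), and that of the female PBS hearts, -3.40 ± 0.69 (SD, n = 3), did not differ beyond their spread.

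Sftpa1, the other collectin, was measured in male meth hearts alone. It was well above background at -4.94 and -3.12 in the 2 meth males of trial 1 and at -3.82 in replicate 2 of trial 2, while replicate 1 of trial 2 was not, at -5.15. The male PBS hearts read -6.64, -7.26, -7.40 and -7.17 and the 7 female hearts lay between -7.92 and -5.89, none of them well above background. Male meth and male PBS hearts did not overlap, and the fold was at least 1.74 with the unmeasured meth heart taken at its reading. The log2 difference as measured was 2.86 (SE 0.53), with 2.92 in trial 1 and 2.80 in trial 2. In females the values overlapped (0.19, SE 0.57) and both groups were at background, so that there is no fold. A second Sftpa1 probe was well above background on 0 of 15 arrays and lay between -8.03 and -6.69, so the 2 probes disagree in male meth hearts.

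**Figure D1:**
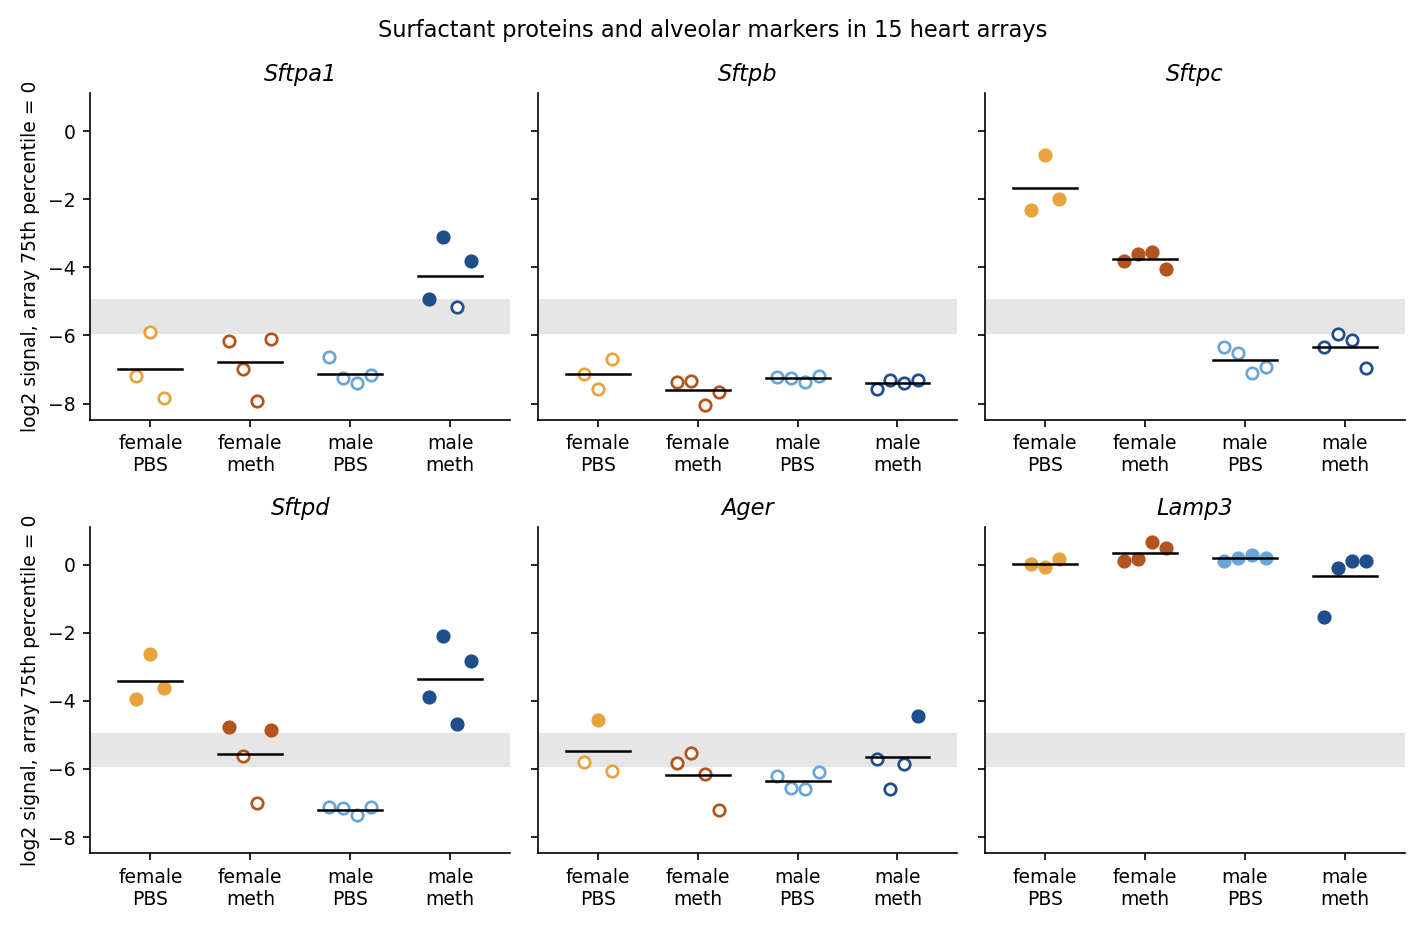
Log2 signal of each of the 6 genes (y axis, 75th percentile of the array set to 0) in the 4 groups, 1 point per heart, with a black line at the group mean. Filled points were well above background and open points were not, and the grey band spans the lowest signals so called on the 15 arrays. Sftpc is filled in the 7 female hearts, Sftpd in the 4 male meth, 3 female PBS and 2 female meth hearts, Sftpa1 in 3 male meth hearts and Lamp3 in all 15.

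Ager, which on lung type 1 cells is among the most abundant surface proteins, was well above background in 2 of 15 hearts and did not enter the test. These were female PBS replicate 2 at -4.56 and male meth replicate 2 of trial 2 at -4.43. The other 13 hearts lay between -7.19 and -5.53. Meth and PBS hearts overlapped in both sexes. Of the proteins that bind RAGE, such as Hmgb1, all 7 listed genes were tested and none passed in any comparison.

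Lamp3 was the exception in level, well above background in all 15 hearts on its brightest probe. It read 0.11, 0.20, 0.30 and 0.21 in male PBS hearts and 0.02, -0.07 and 0.16 in female PBS hearts. In female meth hearts it read 0.10, 0.17, 0.67 and 0.49, where the higher 2 are the hearts on slide 4. In male meth hearts it read -1.52 and -0.09 in trial 1 and 0.11 and 0.12 in trial 2. The groups overlapped except for replicate 1 of trial 1, which lay far below the other 14 hearts. The male log2 difference was -0.55 (SE 0.26) with that heart and -0.18 without it, and the female difference was 0.32 (SE 0.28). Of the 2 other Lamp3 probes none was well above background on any array, with values between -7.86 and -5.20, so that the level rests on 1 of 3 probes. The related lysosomal genes Lamp1 and Lamp2 did not pass the test in any comparison (Lamp1 log2 difference 0.01 in males and 0.18 in females, adjusted p = 0.952 and 0.262 in limma). Of 8 genes that mark mature dendritic cells, the other known source of Lamp3, 7 were tested and none passed.

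**Figure D2:**
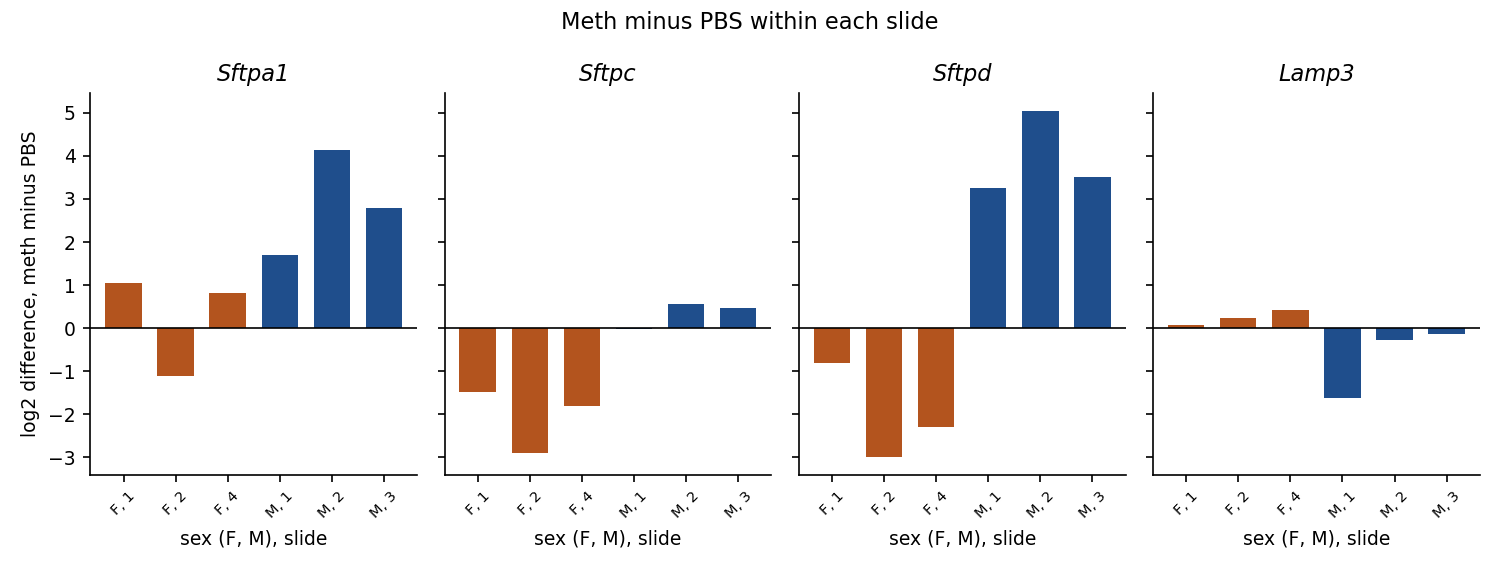
Log2 difference of meth minus PBS hearts (y axis) on each slide for 4 genes, females (F) in brown and males (M) in blue, each bar the mean of the meth minus the mean of the PBS hearts of that sex on that slide. Sftpd is negative on the 3 slides with females and positive on the 3 slides with males, and Sftpc is negative on the 3 slides with females. For Sftpa1 and Sftpc the bars of a sex whose hearts were all at background (Sftpa1 in females, Sftpc in males) are differences between background readings.

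In males 2 of 6, Sftpa1 and Sftpd, were higher in every meth than in every PBS heart and 0 were lower. Over all probes tested 4.74% were higher in this way and 5.05% lower. In females 0 of 6 were higher and 2 of 6, Sftpc and Sftpd, were lower in every meth heart, against 3.12% of all probes higher and 5.99% lower. Between the PBS groups, Sftpc, Sftpd and Ager were lower in every male than in every female heart and 0 were higher. Of all probes tested 7.98% were lower and 6.68% higher. For Ager only 1 PBS heart was well above background, and the highest male PBS reading, -6.10, lay just below the lowest female PBS reading, -6.06. Ager and Sftpb did not enter the test, whereas the shares are over probes tested. These counts used the signals that chose the genes, so nothing is read from them.

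**Figure D3:**
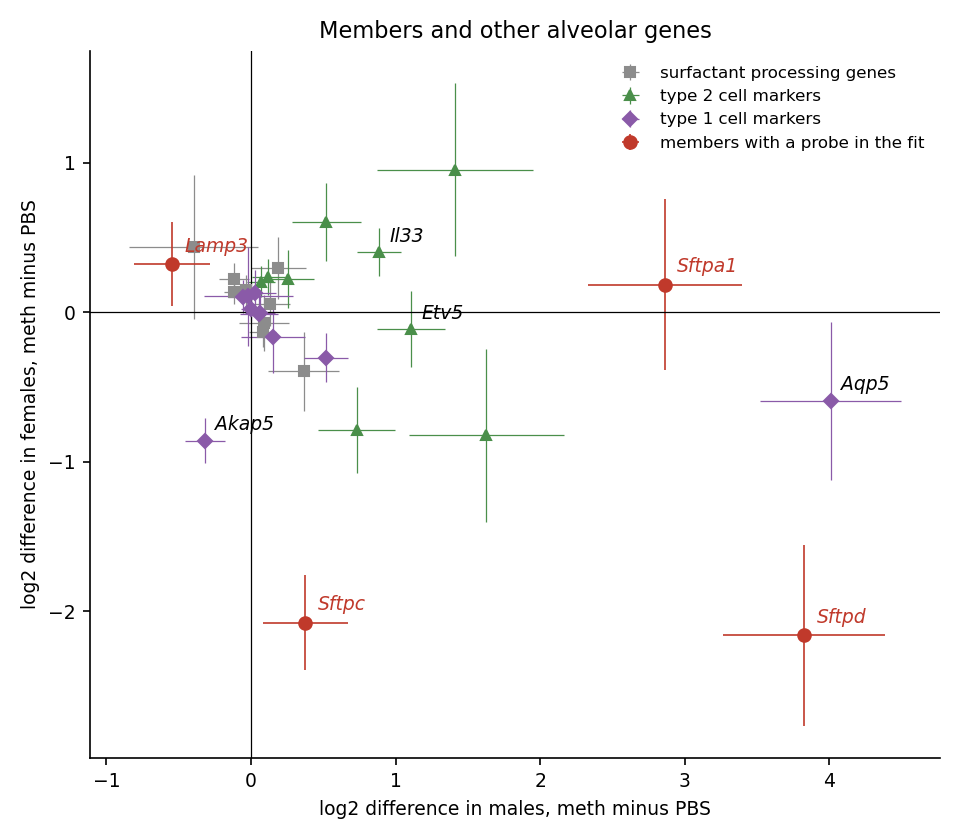
Log2 difference of meth minus PBS in males (x axis) against that in females (y axis), with bars of 1 standard error, for the 4 genes with a probe in the fit (red) and the 28 tested genes of the lists of surfactant processing genes (grey squares), type 2 cell markers (green triangles) and type 1 cell markers (purple diamonds). Sftpd lies at 3.83 and -2.16 and Aqp5 at 4.01 and -0.59, while the list genes other than Aqp5 differ by 1.63 or less in males.

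The other genes of surfactant and of the alveolus were taken from 3 lists of 38 genes, of which 35 were on the array and 28 were tested. In males 3 of 28 rose with meth and 0 fell at an adjusted p under 0.05 in limma, against 0.804% of all probes higher and 0.3% lower. Their median log2 difference was 0.10, against -0.03 over all probes tested. In females 0 rose and 1 fell, against 0.205% and 0.564% of all probes, with a median of 0.08 against 0.00. For the male minus the female response 1 gene was higher and 0 were lower, against 0.102% and 0.0353%. Between PBS hearts 0 were higher and 2 were lower in males, against 0.183% and 0.289%.

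None of the 9 tested genes that process or clear surfactant passed in any of the 4 comparisons, and all 9 were well above background on all 15 arrays. Abca3, the transporter that loads lipid into lamellar bodies, differed by 0.09 (SE 0.17, adjusted p = 0.883) in males in limma. Napsa and Ctsh, proteases that trim surfactant proteins B and C, differed by 0.36 (SE 0.25, adjusted p = 0.587) and -0.03 (SE 0.10, adjusted p = 0.923) in males in limma. Prdx6, a lipid peroxidase and phospholipase, and Ctsh were the brightest of the list in male PBS hearts, at 5.31 ± 0.03 and 4.38 ± 0.19 (SD, n = 4). These genes are used well beyond the lung.

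Of 16 type 2 cell markers, 15 were on the array and 6 were well above background on no array. Those 6 were the transcription factors Nkx2-1 and Foxa2, the chemokine Cxcl15, the calcium-binding protein S100g, Egfl6 and the mucin Muc1. Of 9 tested, 2 rose in male meth hearts, Etv5 and Il33, and 0 fell, against 0.804% of all probes higher and 0.3% lower. Il33, an alarm cytokine of epithelial and endothelial cells, read -0.21, -0.14, 0.28 and 0.03 in male meth and -0.76, -1.02, -0.85 and -0.95 in male PBS hearts, which did not overlap. It was higher by 0.88 (SE 0.15, adjusted p = 0.0158 in limma), and the female difference was 0.40 (SE 0.16, adjusted p = 0.356 in limma). The difference between these responses was 0.48 (SE 0.22, adjusted p = 0.58 in limma). Etv5, a transcription factor downstream of fibroblast growth factor signals, was well above background in 3 male meth hearts and in no male PBS heart. It was at least 1.5-fold higher in meth, with the unmeasured meth heart taken at its reading. The adjusted p was 0.0474 in limma, and 5 of 28 alternative fits passed. Hc, the gene of complement C5, was lower in male than in female PBS hearts by 1.90 (log2 difference -1.90, SE 0.32, adjusted p = 0.0231 in limma). Only 1 male PBS heart was well above background for Hc, so the size rests mostly on background readings in males. The brightest of the list in male PBS hearts were Lyz1, whose probe may also read its near-identical neighbour Lyz2, and Gata6, a heart transcription factor, and neither passed.

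Of 12 type 1 cell markers, 11 were on the array, 10 were tested and Cldn18, a tight junction protein of these cells, passed the background call on none. Aqp5, a water channel of type 1 cells and of airway glands, read -2.44, -0.53, -3.01 and -2.21 in male meth hearts, all well above background. In male PBS hearts it read -6.74, -5.91, -5.79 and -5.78, none well above background, which makes it at least 8.08-fold higher in meth (adjusted p = 0.00184 in limma). In females it read -4.50, -5.74, -6.03 and -4.53 with meth and -4.72, -4.58 and -4.52 with PBS, and did not pass (log2 difference -0.59, SE 0.53, adjusted p = 0.777 in limma). The difference between the sexes was 4.60 (SE 0.72, adjusted p = 0.0241 in limma), which became an adjusted p of 0.117 with the replicate block. Akap5, an anchoring protein for kinases, was lower in female meth hearts by 0.86 (log2 difference -0.86, SE 0.15, adjusted p = 0.0281 in limma), which became an adjusted p of 0.0839 with the replicate block. Pdpn, podoplanin, was lower in male than in female PBS hearts (fitted log2 difference -1.15, SE 0.18, adjusted p = 0.0163 in limma). The group means were -4.96 and -4.19, the 2 male PBS hearts of trial 1 were not well above background, and 19 of 27 alternative fits passed. Cav1 and Hopx, which heart cells also use, were the brightest of the list in male PBS hearts, at 5.19 ± 0.05 and 5.04 ± 0.19 (SD, n = 4), and did not pass in any comparison.

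Markers of airway cells also rose in male meth hearts. All 9 tested secretory airway genes passed there, against the 0.804% of all probes that were higher, with a median log2 difference of 5.70. This list was chosen with earlier results of these data known, so the count is a description and no independent support. Muc5b, a member of the list, would not have entered the test without the male meth hearts. In females, where Sftpd read lower with meth, 2 of 9 rose, against 0.205% of all probes higher. No female PBS heart was well above background for either gene. Bpifa1 was at least 13.3-fold higher (log2 difference as measured 4.77, adjusted p = 0.0108 in limma). Reg3g was at least 3.48-fold higher (3.46, adjusted p = 0.0406 in limma), with the unmeasured meth heart taken at its reading. The 3 secretory airway genes with the largest differences in males were Bpifa1, Cyp2a5 and Scgb1a1. Bpifa1, a secreted defence protein, was at least 899-fold higher (adjusted p = 2.89e-06 in limma). Scgb1a1, the club cell secretory protein, read 3.57 and 5.27 in the meth males of trial 1 and 2.63 and 3.99 in those of trial 2. The male PBS hearts of trial 1 read -4.61 and -4.68, and those of trial 2, which were not well above background, -5.68 and -6.74. The log2 difference as measured was 9.29 (SE 0.52, adjusted p = 2.89e-06 in limma). In females Scgb1a1 read -0.29, -1.97, -1.65 and -0.07 with meth and -0.11, 1.10 and 0.48 with PBS, a difference of -1.48 that did not pass (SE 0.56, adjusted p = 0.309 in limma). Scgb1a1 was lower in male than in female PBS hearts (log2 difference -5.25, SE 0.61, adjusted p = 0.00188 in limma). The summed linear signal of the 9 genes, with the 75th percentile of an array as 1, was 37.6 to 192 in male meth, 0.55 to 0.648 in male PBS, 1.27 to 4.23 in female meth and 1.65 to 3.22 in female PBS hearts. Of 5 tested markers of ciliated airway cells 2 rose in male meth hearts, and neither was well above background in a male PBS heart. The cilium factor Foxj1 was at least 2.64-fold higher (adjusted p = 0.000136 in limma). Foxj1 was well above background in the male meth hearts alone and entered the test only through them. Its adjusted p sets them against background readings and is a description. The dynein light chain Dynlrb2 was at least 11.7-fold higher (adjusted p = 0.000143 in limma). The summed signal of all 8 ciliated cell genes was 3.63 to 4.88 in male meth and 2.64 to 3.37 in male PBS hearts. In females it was 3.96 to 4.27 with meth and 3.79 to 4.11 with PBS. This sum rests mostly on Tppp3 and Cfap126, the brightest of the list in every group, neither of which passed in any comparison. It therefore gives no size of a ciliated cell signal. In the same units the 15 type 2 cell markers summed to 25.4 to 29.0 in male meth, 20.3 to 27.0 in male PBS, 22.8 to 38.8 in female meth and 23.1 to 28.7 in female PBS hearts. Lyz1 and Gata6, which the heart also uses, made up 89.4% to 94.7% of that sum. Of the alveolar macrophage markers 1 of 5 tested rose in males, Plet1 (0.87, SE 0.19, adjusted p = 0.0474 in limma). None of the tested markers of lung mesenchyme, thyroid or tracheal cartilage passed in any comparison. The part of these cell types in the collectin signals was not tested.

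**Figure D4:**
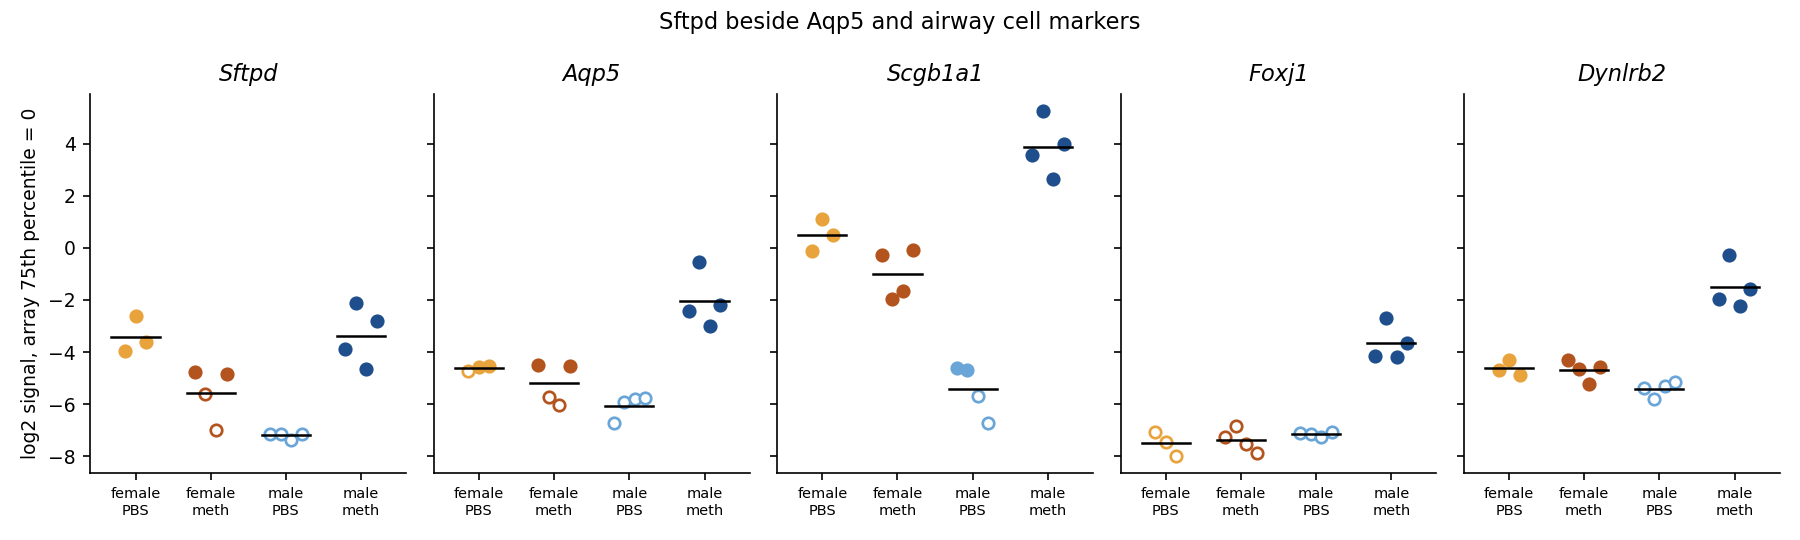
Log2 signal (y axis, 75th percentile of the array set to 0) of Sftpd, the type 1 cell marker Aqp5, the secretory cell marker Scgb1a1 and the ciliated cell markers Foxj1 and Dynlrb2 in the 4 groups, 1 point per heart with a black line at the group mean, filled where well above background. All 5 are highest or among the highest in male meth hearts, and of these Sftpd, Scgb1a1 and Dynlrb2 are also well above background in every female PBS heart.

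Within the male meth group the hearts stood in the same order for Sftpd, Sftpa1, Aqp5, Scgb1a1, Bpifa1, Foxj1 and Dynlrb2: replicate 2 of trial 1 was highest, followed by replicate 2 of trial 2, replicate 1 of trial 1 and replicate 1 of trial 2. Of the 9 secretory airway genes 5 held this order and 4 did not (Scgb3a1, Bpifb1, Reg3g and Cldn10). Of the 5 tested ciliated cell markers 4 held it and Tppp3 did not, and of the 28 tested alveolar list genes 3 held it. Of all probes tested 4.51% held it. Sftpc, at background in these hearts, and Lamp3 did not hold it. In female PBS hearts Sftpc, Sftpd and Scgb1a1 all read highest in replicate 2 and lowest in replicate 1. In female meth hearts Sftpc was highest in replicate 3, in which Sftpd was lowest.

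Likeness of pattern was measured as Pearson's r over the 15 arrays against 21029 tested probes with a gene name, as a description across arrays that fall into groups. Sftpa1 was most like Gpx2 (r = 0.954), A2ml1 (r = 0.954) and Slc39a4 (r = 0.953), of which Gpx2 and Slc39a4 were measured in all 15 hearts. Sftpa1 itself was measured in 3 hearts, all male meth, so most of its values behind these r are background readings. Sftpd was most like Scgb1a1 (r = 0.9), followed by Cep128 (r = 0.849) and Calml4 (r = 0.838). Sftpc was most like Apob (r = 0.973), the protein of low-density lipoprotein, Mug1 (r = 0.965), a plasma protease inhibitor, and the carboxylesterase Ces1c (r = 0.944). These 3 probes were well above background on 7 arrays each, and Apob read on average -3.18 in female PBS, -4.36 in female meth, -6.79 in male meth and -6.90 in male PBS hearts. Lamp3 was most like Gfus (r = 0.945), Alox12b (r = 0.922) and Pfpl (r = 0.914), and its range rests on the 1 low heart. No gene stood among the nearest 3 of more than 1 of the 4.

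Of 7 other genes of the collectin family 4 were tested, and none passed with meth in either sex. Mbl1, which lies between Sftpa1 and Sftpd, was at background on all 15 arrays. Mbl2, a mannose-binding lectin of plasma, was higher in female than in male PBS hearts by at least 1.73-fold (adjusted p = 0.0357 in limma), with 2 of 3 female PBS hearts and no male PBS heart well above background. The unmeasured female PBS heart was taken at its reading.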

How the data were processed

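Per the labels and the methods, the authors hybridised Cy3-labelled cRNA of each heart to an Agilent array and extracted it with Feature Extraction (version 9.1 in the submitters' notes, 10.5.1.1 in the file headers). The deposited files hold a background-subtracted intensity per spot, not normalized between arrays, with flags for outliers, saturation and signal well above background. The authors also deposited log2 values of the same arrays, used as an alternative. No spot was saturated.

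Control spots were left out and outlier spots set to missing. The log2 intensities of a probe's spots were averaged and the array's 75th percentile over non-control spots was subtracted. Genes were named from the accession in the files through a RefSeq table, which gave a symbol for 26918 probes. Where a gene has several probes the brightest on average stands for it. Precision is limited by the number of arrays. The 4 groups and the trial were fitted in 1 model over 15 arrays with limma 3.58.1 in R 4.3.3, which was tested on simulated data, and two-sided p-values were adjusted by Benjamini-Hochberg over 28358 probes with a threshold of 0.05. Nothing in the labels pairs mice across groups. Mice with the same number shared a slide. Their deviations from the group means correlated at 0.3, 0.437 and 0.664 in females, -0.0852 in males of trial 1 and 0.00986 in males of trial 2. The main model paired no mice, so its female p-values leave out the likeness seen in females. The replicate block, an alternative, paired mice of the same number in both sexes. The 6 genes and the lists were chosen with earlier results of these data known. The genes named are the 6 genes, the genes of the 3 alveolar lists that passed in a comparison, the 2 brightest of each in male PBS hearts, up to 3 that passed of the other lists, and the 3 most alike in pattern. A few others are named to show their level and were chosen after their values were seen. Alternatives were other background corrections, normalizations, filters, blocks and trial labels, leaving out an array, and the methods' t-test.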

Additional observations from a re-analysis of the deposited data

Results flagged for a closer look

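Sftpd stood out because all 4 male meth hearts lay above all male PBS hearts while all 4 female meth hearts lay below all female PBS hearts. The difference between the responses was 5.98 on the log2 scale, and it was not tested since Sftpd was chosen with these signals known. Aqp5 stood out because its response differed between the sexes, by 4.60 on the log2 scale (adjusted p = 0.0241 in limma).

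For the 6 genes' 9 probes in the 3 groups of 4 hearts, 27 sets in all, 3 held a heart that stood apart, where chance flags about 1 in 20 sets. For the brightest Lamp3 probe, male meth replicate 1 of trial 1 read -1.52 against -0.09 to 0.12 in the other 3, a gap of 0.871 of the group's range. For a second Lamp3 probe, male meth replicate 2 of trial 2 read -5.20 against -7.44 to -7.15, also a gap of 0.871 of the range, with none of the 4 well above background. For Sftpd, male PBS replicate 1 of trial 2 read -7.36 against -7.15 to -7.13, a gap of 0.924 of a range that lies wholly at background.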

How the results depend on the processing

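For single genes of the 6, 643 of 670 differences under 29 alternatives moved by less than 1 SD between replicates, 26 moved by more, and 1 that exceeded 2 SE changed sign. Counting small differences as well, 30 had the other sign. The normexp background correction, which adds an offset of 50 to every signal and so compresses differences near background by its construction, moved most. Under it the Sftpd difference was 0.71 in males and -0.38 in females, the Sftpa1 difference in males was 0.36, the Sftpc difference in females was -0.81, and the Sftpb difference in females, at background, went from -0.46 to 0.18. The median log2 difference of the 6 genes was 0.54 in males, -0.58 in females and 1.93 for the male minus the female response. The middle values were those of Sftpc and Ager in males, of Sftpb and Ager in females, and of Ager and Sftpc for the difference. Most of those readings were at background, apart from Sftpc in females, so the medians give no size of response. Under normexp the male median was 0.0158, the female median 0.17 and that of the difference -0.0128. Leaving out 1 heart gave 0.42 to 0.66 in males, -0.73 to -0.40 in females and 1.46 to 2.17 for the difference. The filter on all 15 arrays leaves Lamp3 alone of the 6, so it gave no median.

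The counts of alveolar list genes called are small and moved easily. In males 3 became 0 under normexp, in trial 2 alone and by the methods' t-test, paired or unpaired, and 1 under the filter on all 15 arrays and in trial 1 alone. In females 1 became 0 under normexp, the median shift, no filter, no trial term, the replicate block and both forms of the t-test. For the difference between the sexes 1 became 0 under normexp, the filter on all 15 arrays, the slide block, males of trial 2 alone and the replicate block. Between PBS hearts 2 became 0 under normexp, the filter on all 15 arrays and the unpaired t-test, and 1 under quantile normalization, no trial term, the other trial label, males of trial 2 alone and the mean of tested probes. By the paired t-test 0 probes of 28358 passed in males or females, with 4233 and 2829 at an unadjusted p under 0.05, and by the unpaired test 19 and 0 passed.

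Leaving out 1 heart gave 1 to 3 genes in males, 0 to 1 in females, 0 to 1 for the difference and 0 to 2 between PBS hearts. The Aqp5 difference between the sexes did not pass without 9 hearts, each left out in turn: female meth replicate 2 or 3, any female PBS heart, male PBS replicate 1 or 2 of trial 1, male PBS replicate 1 of trial 2 or male meth replicate 2 of trial 2. The Aqp5 rise in males passed in 26 of 28 fits (adjusted p 0.000932 to 0.315), with normexp and trial 2 alone as the exceptions, and the Il33 rise in 22 of 29 (0.00911 to 0.316). Pdpn, lower in male PBS hearts, did not pass under normexp, no trial term, the other trial label, males of trial 2 alone or the mean of probes, nor without male PBS replicate 1 of trial 1 or female PBS replicate 2 or 3. The Akap5 fall in females did not pass without female meth replicate 3 or 4 or female PBS replicate 1 or 2. With the replicate block 2 alveolar list genes were called in males, 0 in females and 0 for the difference.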
